A study of Homo sapiens with 4 samples.

Results

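Transcripts of 10 secreted angiogenic and growth ligands were measured in U251-MG cells, an established human glioma line grown in serum-containing DMEM. The ligands were the 10 rows of the gene count table named VEGFA, VEGFB, VEGFC, PGF, FGF2, EDN1, STC1, ANGPTL2, HBEGF and ANGPT1, of 61806 genes in all, and all 10 were found and passed the low-count filter that left 17030 genes to test. In the COL8A1 group, 2 libraries came from cells infected with a lentiviral pCDH-CMV-MCS-EF1-puro vector that carried COL8A1, which encodes a chain of collagen VIII. In the NC group, 2 libraries came from cells infected with the negative control vector. All 4 are given the genotype WT. The labels say neither whether the infected cells were clones or pools nor whether replicates were grown as separate cultures, so the p-values reflect a spread between libraries that may be no more than technical.

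Glioblastomas are richly vascularised, and glioma cells secrete ligands that act on endothelial cells and on the tumour cells themselves. VEGFA binds the receptor tyrosine kinases FLT1 and KDR, VEGFB and PGF bind FLT1, and VEGFC acts through FLT4 and KDR, with the neuropilins NRP1 and NRP2 as co-receptors. ANGPT1 activates TEK (Tie2) on endothelium. FGF2 signals through FGF receptors together with heparan sulphate, HBEGF through EGFR and ERBB4, and EDN1, after cleavage by ECE1, through the G protein-coupled receptors EDNRA and EDNRB. VEGFA, STC1 and EDN1 are known to be induced in hypoxia.

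In the COL8A1 cells 8 of the 10 ligands were higher than in NC cells, against 50.2% of all genes tested, and 2, FGF2 and EDN1, were lower. No ligand passed the threshold of an adjusted p of 0.05 (edgeR adjusted p 0.804 to 0.989). The ligands were chosen with earlier results of these data known, so shares of the list are a description and not a test. ANGPTL2, PGF and HBEGF had fitted folds of 1.45, 1.43 and 1.42 (COL8A1 over NC), STC1 and VEGFC of 1.26 and 1.24, and VEGFA, VEGFB and ANGPT1 of 1.06, 1.08 and 1.02. FGF2 and EDN1 had fitted folds of 0.726 and 0.48. The edgeR threshold was passed by 2 of the 17030 genes (0.0117%), both lower in COL8A1 cells, and neither is a ligand. COL8A1, the gene carried on the vector, missed it as well (edgeR adjusted p = 0.0681). At an unadjusted edgeR p under 0.05 there were 2 ligands higher, ANGPTL2 and STC1, against 3.44% of all genes tested, and 2 lower, FGF2 and EDN1, against 2.63% of all genes. DESeq2 called 0 of the 10 after adjustment (1.06% of all genes), with adjusted p-values from 0.455 to 1.00, and 4 at an unadjusted p under 0.05, against 5.76% of all genes at that DESeq2 p. The 4 edgeR values lay between 0.0383 and 0.04995 (a model across all genes, not a test of the list). With all 4 libraries kept, the count was 2 under a filter of 1 CPM in 2 libraries and 1 with replicate number as a further term. It was 3 under upper quartile scaling, under library size alone and in limma-voom.

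**Figure D1:**
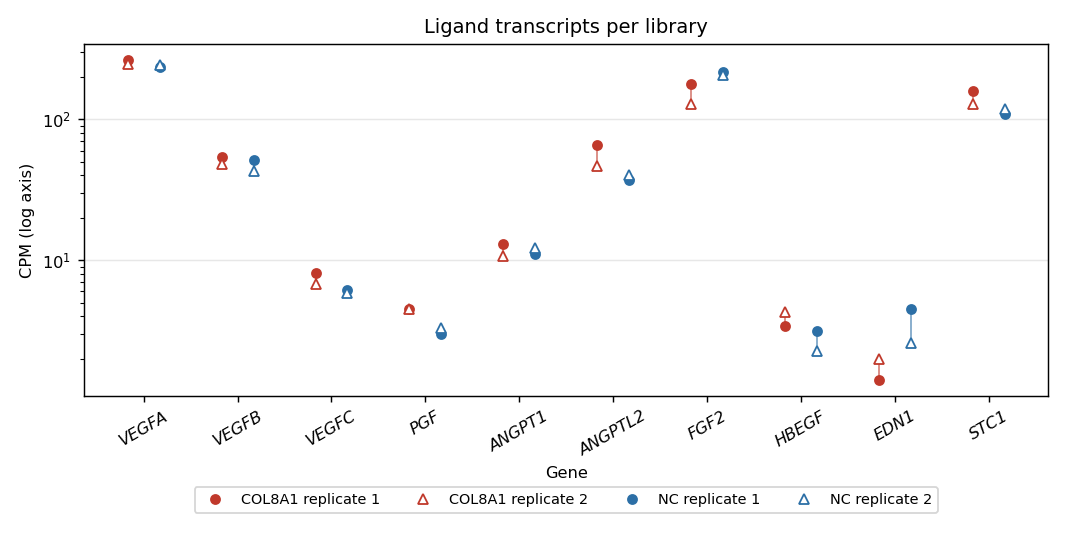
Level of each ligand transcript (CPM, counts scaled to library size, log axis) in the 4 libraries; red marks COL8A1, blue marks NC, filled circles are replicate 1 and open triangles replicate 2, joined by a line within a group. VEGFA, FGF2 and STC1 lie above 100 CPM in all 4 libraries, and the COL8A1 and NC libraries overlap for VEGFB and ANGPT1.

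The total count per library was 31605164 and 27923796 in COL8A1 replicates 1 and 2 and 30895414 and 33576228 in NC replicates 1 and 2. COL8A1 itself was at 135 and 81.3 CPM in the COL8A1 libraries, against 2.51 and 2.43 CPM in the NC libraries, in the direction of the labels. Its log2 fold change was 5.45, with a DESeq2 adjusted p of 6.25e-72 and an edgeR adjusted p of 0.0681. The edgeR threshold was thus missed even by the gene carried on the vector, and the reason was not tested. Of 10 glioma and astrocyte markers, VIM, SOX2, CD44 and NES were the most abundant, with means of 2923, 634, 483 and 439 CPM in COL8A1 cells and 2821, 559, 441 and 402 CPM in NC cells, while GFAP was at 1.94 ± 0.148 CPM in COL8A1 cells and 0.624 ± 0.0856 CPM in NC cells (SD, n = 2 each) and CHI3L1 was at 0 to 3 counts. All 9 markers tested were higher in COL8A1 cells, against 50.2% of all genes, and 4 of them, SLC1A3, GFAP, FABP7 and SOX9, had an unadjusted edgeR p under 0.05, against 3.44%. None passed after adjustment in edgeR, and DESeq2 called SLC1A3 and FABP7, against 1.06% of all genes. The glutamate transporter SLC1A3 was at 52.8 and 59.2 CPM in the COL8A1 libraries, against 27.3 and 27.2 CPM in the NC libraries (log2 fold change 1.04, DESeq2 adjusted p = 2.52e-10, edgeR adjusted p = 0.165). The fatty acid binding protein FABP7 was at 49.97 and 48.4 CPM in the COL8A1 libraries, against 32.1 and 36.8 CPM in the NC libraries (log2 fold change 0.51, DESeq2 adjusted p = 0.0461, edgeR adjusted p = 0.58). The part of these markers in the differences of the ligands was not tested. The summed level of the 12 endothelial markers was 87.5 and 70.8 CPM in the COL8A1 libraries and 75 and 73.6 CPM in the NC libraries, most of it VE-cadherin, CDH5 (78.3 and 60.1 CPM in the COL8A1 libraries, against 62.8 and 62.6 CPM in the NC libraries). TEK lay between 5.69 and 6.82 CPM and ROBO4 between 1.38 and 2.70 CPM. The other 9, PECAM1, VWF, KDR, CLDN5, ESAM, EMCN, TIE1, PLVAP and ERG, reached at most 1.37 CPM in a library, and ERG had 0 counts in all 4. The summed level of 8 microglia and macrophage markers was 4.03 and 5.11 CPM in the COL8A1 libraries and 5.45 and 6.65 CPM in the NC libraries, and AIF1 had 0 counts. The 10 fibroblast and pericyte markers summed to 142 and 131 CPM in the COL8A1 libraries and 130 and 135 CPM in the NC libraries. Most of it was MCAM (125 and 112 CPM in the COL8A1 libraries, against 112 and 118 CPM in the NC libraries). The sums also hold an antisense gene that shares the name RGS5, at 1.07 to 1.99 CPM. COL1A1 lay between 1.48 and 2.71 CPM and PDGFRB at 0 to 18 counts. In such bulk RNA, fewer cells of a kind and less RNA per cell cannot be told apart.

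Upstream sequences are shown for the pair of ligands that were lower in COL8A1 cells and for PGF, whose COL8A1 libraries lay closest together. They are RefSeq sequences of build GRCh38.p14, read 5′ to 3′ on the gene's strand, and end at the RefSeq start of transcription or, where GENCODE release 29 places a start further upstream, just before that one. The table held entries for 7 of the 10 ligands, with 10 starts. VEGFA, STC1 and ANGPT1 are named only. Capitals mark matches, on either strand, to the hypoxia response core ACGTG, which also lies inside the E-box CACGTG, to the GC box GGGCGG, to the TATA box TATAAA, and to TGANTCA, the letters of an AP-1 site.
EDN1 chr6:12290111-12290360, plus strand: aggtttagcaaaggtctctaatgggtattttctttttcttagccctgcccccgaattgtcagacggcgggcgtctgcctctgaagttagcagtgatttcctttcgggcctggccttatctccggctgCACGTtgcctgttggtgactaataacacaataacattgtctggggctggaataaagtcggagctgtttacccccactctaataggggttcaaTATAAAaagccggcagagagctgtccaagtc
FGF2 chr4:122826581-122826707, plus strand: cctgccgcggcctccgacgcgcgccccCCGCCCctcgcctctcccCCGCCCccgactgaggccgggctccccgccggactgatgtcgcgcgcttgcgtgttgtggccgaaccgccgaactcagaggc
PGF chr14:74955785-74956014, minus strand: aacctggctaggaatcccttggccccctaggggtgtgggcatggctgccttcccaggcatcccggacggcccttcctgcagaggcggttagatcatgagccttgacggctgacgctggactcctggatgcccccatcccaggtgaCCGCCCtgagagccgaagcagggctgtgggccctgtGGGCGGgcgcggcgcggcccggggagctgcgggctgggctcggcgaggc

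The printed EDN1 stretch, from 1 of its RefSeq starts, held 1 hypoxia response core and 1 TATA box and no GC box. In the 250 bases upstream of the RefSeq start, a hypoxia response core was present in 18.5% of 35116 promoter entries, a TATA box in 10.7%, a GC box in 42.6% and the AP-1 letters in 6.57%. Of the 7 ligands with an entry, EDN1 was the one with a hypoxia response core, with 2 more upstream of its outermost RefSeq start. The EDN1 window at that start, which is not printed, also held 1 GC box. The windows of FGF2, PGF, HBEGF, ANGPTL2, VEGFB and VEGFC each had between 2 and 6 GC boxes in 250 bases and no TATA box. None of the 10 windows held TGANTCA. A match is a description of the letters and not a factor's site.

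Among the VEGF family, PGF (placental growth factor; ENSG00000119630, chromosome 14, 74941834 to 74955784, minus strand, GENCODE release 29) had the group difference that was largest beside the differences within the groups. It was at 4.50 and 4.54 CPM in the COL8A1 libraries, against 3.0 and 3.29 CPM in the NC libraries. Both COL8A1 libraries were above both NC libraries, and the replicates of each group lay close together. PGF had a log2 fold change of 0.52 (SE 0.217, edgeR adjusted p = 0.817). The values rest on few reads: 143 and 126 counts in COL8A1 replicates 1 and 2, against 92 and 111 in NC replicates 1 and 2. The exact 95% Poisson intervals, which cover counting error only, were 3.79 to 5.30 and 3.78 to 5.40 CPM in COL8A1 replicates 1 and 2, and 2.42 to 3.68 and 2.71 to 3.97 CPM in NC replicates 1 and 2. Those of both COL8A1 libraries overlapped that of NC replicate 2 and lay above that of NC replicate 1.

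VEGFC, a lymphangiogenic and angiogenic factor (ENSG00000150630, chromosome 4, 176683538 to 176792727, minus strand), was at 8.12 and 6.73 CPM in the COL8A1 libraries, against 6.13 and 5.82 CPM in the NC libraries. The groups did not overlap, and COL8A1 replicate 1 was the highest library. The log2 fold change was 0.31 (SE 0.190, edgeR adjusted p = 0.837), and it was 0.17 without COL8A1 replicate 1.

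VEGFA, the main angiogenic factor of glioblastoma (ENSG00000112715, chromosome 6, 43770184 to 43786487, plus strand), was the most abundant of the 10 in CPM. It was at 264 and 247 CPM in the COL8A1 libraries, against 237 and 243 CPM in the NC libraries. The groups did not overlap, yet the difference between the groups (log2 fold change 0.09, SE 0.066, edgeR adjusted p = 0.858) was smaller than that between the COL8A1 libraries, 0.10 on the log2(CPM + 0.5) scale. The log2 fold change was 0.04 without COL8A1 replicate 1 and 0.13 without COL8A1 replicate 2. The counts are per gene, so its splice forms, which differ in heparin binding, were not told apart. An opposite-strand gene, ENSG00000272114, shares 188 exon bases with VEGFA and had 26 to 60 counts per library.

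VEGFB, linked in mice to fatty acid uptake by endothelium (ENSG00000173511, chromosome 11, 64234538 to 64238793, plus strand), was at 54.0 and 48.0 CPM in the COL8A1 libraries, against 51.6 and 43.2 CPM in the NC libraries. The groups overlapped. Its log2 fold change was 0.11 (SE 0.131, edgeR adjusted p = 0.906) and turned to −0.02 without NC replicate 2. It was 0.02 without COL8A1 replicate 1, 0.19 without COL8A1 replicate 2 and 0.24 without NC replicate 1.

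ANGPTL2, an angiopoietin-like secreted protein that binds integrin α5β1 and not TEK (ENSG00000136859, chromosome 9, 127087332 to 127122883, minus strand), had the highest fitted fold of the 10. It was at 66.0 and 46.9 CPM in the COL8A1 libraries, against 37.1 and 40.6 CPM in the NC libraries. Both COL8A1 libraries were above both NC libraries, with replicate 1 far above the other three. ANGPTL2 had a log2 fold change of 0.54 (SE 0.188, edgeR adjusted p = 0.804). It was 0.27 without COL8A1 replicate 1 and 0.76 without COL8A1 replicate 2, so its size depends on which COL8A1 library is used. ANGPTL2 also had the second widest range over the libraries among the 10, 0.82 on the log2(CPM + 0.5) scale, and the widest among those of at least 5 CPM.

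By a likeness measure, the Euclidean distance between the deviations of log2(CPM + 0.5) from each gene's mean over the 4 libraries, the nearest of 11278 other genes with a mean of at least 5 CPM were TMEM223, ATG16L2 and BPHL, at distances of 0.0781, 0.0815 and 0.0815 from ANGPTL2. TMEM223 was at 15.95 and 11.95 CPM in the COL8A1 libraries and 9.39 and 10.3 CPM in the NC libraries. With 4 libraries such a likeness is easily met, and it is given as a description of these libraries.

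ANGPT1, the TEK agonist that stabilises vessels (ENSG00000154188, chromosome 8, 107249482 to 107498055, minus strand), was at 13.0 and 10.7 CPM in the COL8A1 libraries, against 10.99 and 12.3 CPM in the NC libraries. The groups overlapped, and the COL8A1 libraries were the highest and the lowest of the 4. The log2 fold change was 0.03 (SE 0.166, edgeR adjusted p = 0.989), and its sign turned without COL8A1 replicate 1 (−0.12) and without NC replicate 1 (−0.05). It was 0.15 without COL8A1 replicate 2 and 0.10 without NC replicate 2.

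FGF2, basic fibroblast growth factor (ENSG00000138685, chromosome 4, 122826708 to 122898236, plus strand), was at 177 and 129 CPM in the COL8A1 libraries, against 216 and 206 CPM in the NC libraries. Both COL8A1 libraries were below both NC libraries, which lay close together, and COL8A1 replicate 2 was the lowest. The log2 fold change was −0.46 (SE 0.163, edgeR adjusted p = 0.804). It was −0.71 without COL8A1 replicate 1 and −0.26 without COL8A1 replicate 2. FGF2 shares 804 exon bases with NUDT6 on the opposite strand, and the strand setting of the counting is not given in the sources used here. NUDT6 had 150 to 183 counts per library, and with its counts added to those of FGF2 the log2 fold change was −0.45.

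HBEGF, a membrane-anchored EGFR ligand released by ADAM proteases (ENSG00000113070, chromosome 5, 140332843 to 140346631, minus strand), was at 3.43 and 4.28 CPM in the COL8A1 libraries, against 3.16 and 2.25 CPM in the NC libraries. The groups did not overlap, but COL8A1 replicate 1 and NC replicate 1 were close, with 109 and 97 counts and overlapping exact 95% Poisson intervals (2.82 to 4.14 and 2.57 to 3.86 CPM). HBEGF had a log2 fold change of 0.51 (SE 0.295, edgeR adjusted p = 0.835), and it was 0.34 without COL8A1 replicate 2, 0.77 without NC replicate 1 and 0.28 without NC replicate 2.

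EDN1, the precursor of the vasoconstrictor and mitogen endothelin-1 (ENSG00000078401, chromosome 6, 12290363 to 12297194, plus strand), showed the largest difference of the 10 and one of the lowest levels. It was at 1.42 and 1.98 CPM in the COL8A1 libraries, against 4.50 and 2.58 CPM in the NC libraries. Both COL8A1 libraries were below both NC libraries, and NC replicate 1 was far above the other three. The counts were 45 and 55 in COL8A1 replicates 1 and 2, against 138 and 87 in NC replicates 1 and 2. The exact 95% Poisson interval of COL8A1 replicate 2 (1.49 to 2.58 CPM) overlapped that of NC replicate 2 (2.07 to 3.18 CPM). EDN1 had a log2 fold change of −1.06 (SE 0.396, edgeR adjusted p = 0.816). It was −0.61 without NC replicate 1 and −1.41 without NC replicate 2.

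STC1, stanniocalcin 1, a secreted glycoprotein induced in hypoxia and by VEGF in endothelium (ENSG00000159167, chromosome 8, 23841915 to 23854807, minus strand), was at 160 and 129 CPM in the COL8A1 libraries, against 109 and 119 CPM in the NC libraries. Both COL8A1 libraries were above both NC libraries, COL8A1 replicate 2 by little. The log2 fold change was 0.34 (SE 0.128, edgeR adjusted p = 0.816). It was 0.17 without COL8A1 replicate 1 and 0.48 without COL8A1 replicate 2.

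**Figure D2:**
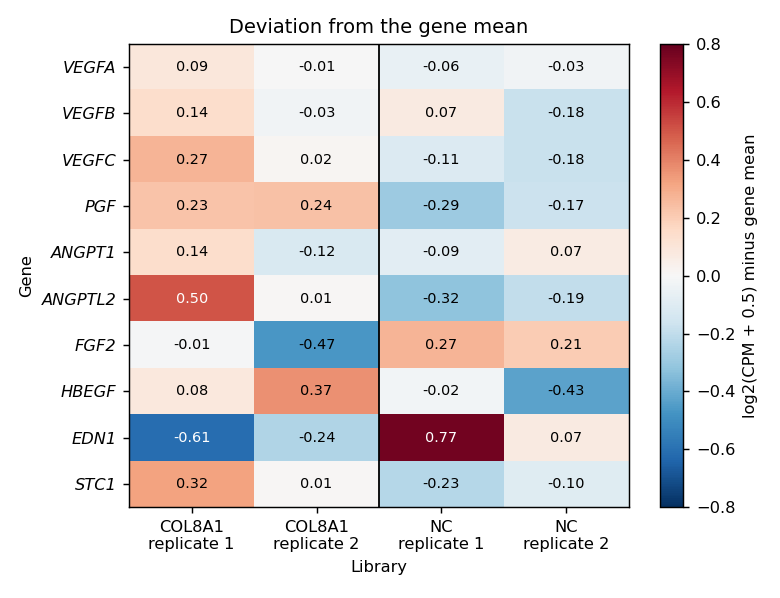
Deviation of each ligand in each library from the mean of that gene over the 4 libraries, on the log2(CPM + 0.5) scale (red above, blue below the mean); COL8A1 libraries stand left of the line and NC libraries right of it. In 7 of the 10 ligands COL8A1 replicate 1 is above COL8A1 replicate 2, and the median over the 10 is 0.14 in replicate 1 and 0.001 in replicate 2. The share of all genes with that order is not given.

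Across the 10 ligands, 6 had both COL8A1 libraries above both NC libraries, against 18.9% of all genes tested, and 2 had both below, against 18.6%. The difference between the groups was larger than the difference within either group for 7 of the 10, against 30.3% of all genes tested, and smaller for VEGFA, VEGFB and ANGPT1. The median log2 fold change of the 10 was 0.21, beside 0.001 over all 17030 genes, and it was 0.10 without COL8A1 replicate 1. Since the 10 were chosen with earlier results of these data known, these contrasts with all genes are a description only. The replicates of the COL8A1 group were not alike: 7 ligands were higher in replicate 1 than in replicate 2 and 3, PGF, EDN1 and HBEGF, were lower. The share of all genes with that order is not given, so the count only describes these libraries. COL8A1 itself was also higher in replicate 1, and a relation of the ligands to its level was not tested. The median deviation of the 10 from their gene means was 0.14 and 0.001 in COL8A1 replicates 1 and 2, and −0.07 and −0.14 in NC replicates 1 and 2. With 2 libraries a group, an exact permutation test of 1 gene cannot go below p = 0.333, two-sided.

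**Figure D3:**
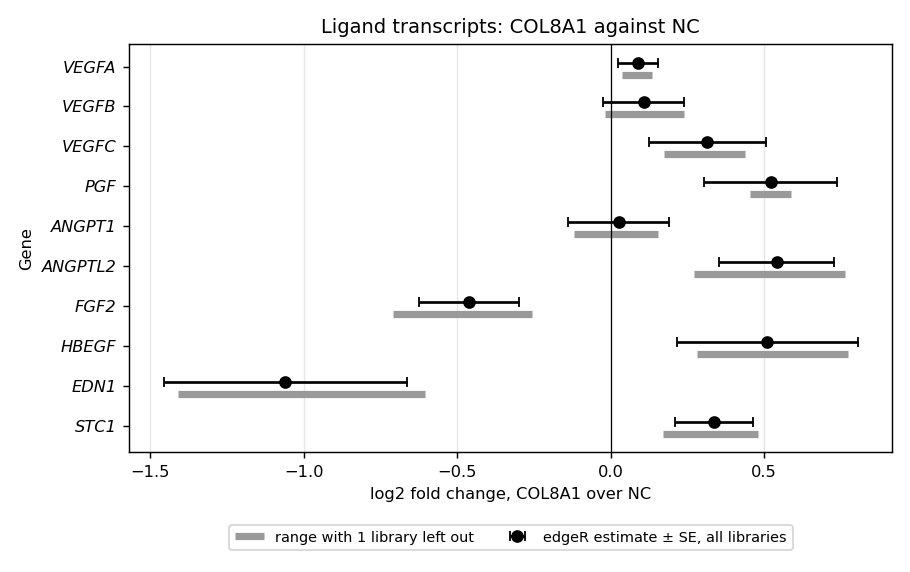
Log2 fold change of each ligand (COL8A1 over NC; points with bars are the edgeR estimate ± SE from all 4 libraries, grey bars the range when each library in turn is left out). The grey bars cross 0 for VEGFB (−0.02 to 0.24) and ANGPT1 (−0.12 to 0.15), and stay below 0 for FGF2 (−0.71 to −0.26) and EDN1 (−1.41 to −0.61).

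The 10 ligands together took 0.0756% and 0.0624% of all counts in COL8A1 replicates 1 and 2, and 0.0674% and 0.0681% in NC replicates 1 and 2. VEGFA, FGF2 and STC1 made up 80.0% and 80.4% of these counts in the COL8A1 libraries, against 82.8% and 83.8% in the NC libraries. Levels of different genes were compared as CPM per kilobase of the longest coding transcript in GENCODE release 29. On this scale VEGFA led with 72.3 ± 3.49 in COL8A1 cells and 68.0 ± 1.15 in NC cells (SD, n = 2 each). In COL8A1 cells it was followed by STC1 (37.2 ± 5.67) and VEGFB (37.0 ± 3.07), which did not differ beyond their spread, then FGF2 (22.6 ± 5.03) and ANGPTL2 (15.2 ± 3.66). In NC cells VEGFB (34.3 ± 4.28), FGF2 (31.1 ± 1.03) and STC1 (29.4 ± 1.86) did not differ beyond their spread, and ANGPTL2 (10.5 ± 0.657) came after them. Within each NC library VEGFB was nevertheless above FGF2 and STC1, whose order differed between the libraries.

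ANGPT1 was next in both groups, at 7.75 ± 1.05 in COL8A1 cells and 7.62 ± 0.586 in NC cells per kilobase, followed by VEGFC at 3.60 ± 0.474 and 2.89 ± 0.108. At the low end in COL8A1 cells the order was PGF (2.34 ± 0.0137), HBEGF (1.62 ± 0.253) and EDN1 (0.835 ± 0.196). In NC cells the low end was EDN1 (1.74 ± 0.667), PGF (1.63 ± 0.108) and HBEGF (1.14 ± 0.269). HBEGF was the lowest in both NC libraries, and the order of EDN1 and PGF differed between them. These orders depend on the length used. The 32 annotated transcripts of VEGFA cover 14431 exon bases but the longest coding one has 3535. Per kilobase of all exon bases VEGFA ranked 4 in every library, behind STC1, VEGFB and FGF2. On that scale VEGFC (3.07 in COL8A1 cells, 2.47 in NC cells) was above ANGPT1 (1.66 and 1.63). The low end on that scale was HBEGF (1.28 ± 0.200), EDN1 (0.835 ± 0.196) and PGF (0.758 ± 0.0044) in COL8A1 cells. In NC cells it was EDN1 (1.74 ± 0.667), HBEGF (0.898 ± 0.213) and PGF (0.528 ± 0.0348).

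The receptors through which the ligands are known to act were unequally present. The VEGF co-receptor NRP2 was at 419.5 and 398.5 CPM in the COL8A1 libraries, against 400.2 and 309.7 CPM in the NC libraries, and NRP1 at 75.9 and 83.6 CPM, against 106 and 76.0 CPM. The groups overlapped for both. The signalling receptors of the VEGF family were at or near 0: FLT1 had 0 counts in both COL8A1 libraries and 3 and 1 in NC replicates 1 and 2, FLT4 had 0 in all 4 libraries, and KDR had 19 and 38 counts in the COL8A1 libraries and 38 in each NC library. A count of 0 allows up to 3 counts, or 0.0893 to 0.107 CPM at these depths.

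TEK, the receptor of ANGPT1, was measured at 6.14 and 5.69 CPM in the COL8A1 libraries, against 6.33 and 6.82 CPM in the NC libraries. FGFR1 was at 23.7 and 21.3 CPM in the COL8A1 libraries, against 20.2 and 22.5 CPM in the NC libraries. Another FGF receptor, FGFR3, was more abundant, at 202 and 255 CPM in the COL8A1 libraries, against 223 and 222 CPM in the NC libraries. The endothelin receptor EDNRA was at 5.57 and 6.45 CPM in the COL8A1 libraries, against 5.12 and 5.96 CPM in the NC libraries. EDNRB was at 0.975 and 1.08 CPM, against 0.913 and 1.39 CPM. EGFR, the HBEGF receptor, was at 126 and 64.0 CPM in COL8A1 replicates 1 and 2, against 148 and 60.0 CPM in NC replicates 1 and 2. It was thus high in both libraries numbered 1 and low in both numbered 2, and the groups overlapped (log2 fold change −0.14, SE 0.532, edgeR adjusted p = 0.978).

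**Figure D4:**
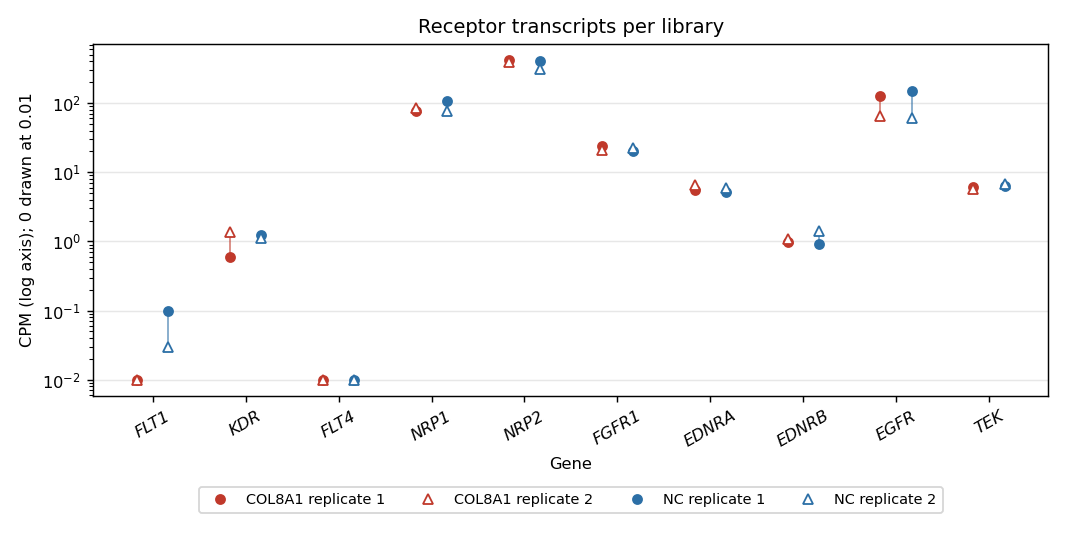
Level of 10 receptors of the ligands (CPM, log axis, with 0 drawn at 0.01) in the 4 libraries; red marks COL8A1, blue marks NC, filled circles are replicate 1 and open triangles replicate 2. Of those drawn, NRP2, NRP1 and EGFR lie above 50 CPM, FLT4 is at 0 in all 4 libraries, and EGFR is split by replicate number and not by vector. FGFR3, at 202 to 255 CPM, is not drawn.

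Of the 26 receptor genes listed, 22 were tested, 9 higher and 13 lower in COL8A1 cells, with a median log2 fold change of −0.05. At an unadjusted edgeR p under 0.05 there were 2 higher and 0 lower, against 3.44% and 2.63% of all genes tested, and none passed after adjustment in edgeR or DESeq2. ITGB3, the β3 integrin chain, was at 3.05 and 3.38 CPM in the COL8A1 libraries, against 1.57 and 1.57 CPM in the NC libraries (log2 fold change 1.03, SE 0.257, edgeR adjusted p = 0.653). FGFRL1, an FGF receptor without a kinase domain, was at 392.2 and 238 CPM in the COL8A1 libraries, against 194 and 146 CPM in the NC libraries (0.89, SE 0.278, edgeR adjusted p = 0.747). For the α5 integrin chain ITGA5 the log2 fold change was −0.26 (SE 0.102) and for the heparan sulphate proteoglycan SDC4 it was −0.20 (SE 0.086). The best counted, ITGB1 and ITGAV, had −0.08 (SE 0.081) and −0.40 (SE 0.315), and ITGAV was at 297 CPM in COL8A1 replicate 1 against 571 to 580 CPM in the other three libraries.

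Of 25 genes that process or release the ligands 19 were tested, 12 higher and 7 lower, with a median of 0.01. At an unadjusted edgeR p under 0.05 there was 1 higher, MMP2, and 1 lower, PLAT, against 3.44% and 2.63% of all genes tested. MMP2, a gelatinase that degrades basement membrane, was at 443 and 341 CPM in the COL8A1 libraries, against 254 and 245 CPM in the NC libraries (log2 fold change 0.65, SE 0.137, edgeR adjusted p = 0.58), and it was the 1 gene of this list that DESeq2 called (adjusted p = 0.0137). PLAT, tissue plasminogen activator, was at 17.05 and 22.3 CPM, against 27.2 and 30.1 CPM in the NC libraries (−0.54, SE 0.167, edgeR adjusted p = 0.745). HPSE, the heparanase that frees heparan-bound FGF2, and HS2ST1, a heparan sulphate sulphotransferase, had values of 0.53 (SE 0.236) and 0.16 (SE 0.082) on the log2 scale. The best counted, the protease ADAM9 and the sulphatase SULF2, had 0.05 (SE 0.072) and −0.08 (SE 0.066). The HBEGF sheddase ADAM17 and the EDN1 converting enzyme ECE1, described here because they act on listed ligands, had 0.01 (SE 0.085) and −0.08 (SE 0.124).

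Of 33 other angiogenic and growth ligands 21 were tested, 11 higher and 10 lower, with a median of 0.02. Of these, 0 had an unadjusted edgeR p under 0.05, against 3.44% of all genes tested higher and 2.63% lower. On the log2 scale the EGF-family ligands NRG1 and BTC differed by 0.37 (SE 0.146) and 0.42 (SE 0.171), and IGF1 by 1.26 (SE 0.567) at 87 and 34 counts in the COL8A1 libraries and 18 and 36 in the NC libraries. Pleiotrophin, PTN, was at 107 and 107 CPM in the COL8A1 libraries, against 120 and 118 CPM in the NC libraries (−0.15, SE 0.066, edgeR adjusted p = 0.826). TGFA, an EGFR ligand and the most abundant of the list in CPM, was at 209 and 226 CPM, against 229 and 210 CPM (−0.01, SE 0.079).

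Over these 3 lists and the 3 that follow, DESeq2 called no gene other than MMP2, and edgeR none. Inhibitors of angiogenesis had 11 of 14 members tested, 6 higher and 5 lower, with a median of 0.03. SPARC, a matricellular protein that binds VEGF, was the 1 member with an unadjusted edgeR p under 0.05, against 3.44% of all genes higher at that p (392.5 and 357.5 CPM in the COL8A1 libraries, against 312 and 327 CPM in the NC libraries; log2 fold change 0.23, SE 0.073, edgeR adjusted p = 0.749). SERPINF1 (PEDF) had 0.25 (SE 0.124), CXCL10 −0.82 (SE 0.484), COL18A1, the source of endostatin, −0.62 (SE 0.373) and the thrombospondin THBS1 −0.02 (SE 0.135).

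Hypoxia response genes had 19 of 20 members tested, 10 higher and 9 lower, with a median of 0.003. At an unadjusted edgeR p under 0.05 there were 0, against 3.44% of all genes tested higher and 2.63% lower. VHL, which targets HIF for degradation, was at 46.8 and 107 CPM in the COL8A1 libraries, against 39.1 and 41.2 CPM in the NC libraries (0.93, SE 0.399, edgeR adjusted p = 0.825). The demethylase KDM3A had 0.22 (SE 0.118), the glycolytic enzymes PGK1 and HK2 −0.10 (SE 0.065) and −0.21 (SE 0.133), and the glucose transporter SLC2A1 −0.32 (SE 0.363). CA9, chosen with its values in view, had 157 and 18 counts in COL8A1 replicates 1 and 2, against 104 and 151 in NC replicates 1 and 2.

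Early genes of growth factor signalling had 20 of 20 members tested, 13 higher and 7 lower, with a median of 0.08. At an unadjusted edgeR p under 0.05 there was 1 higher, PHLDA1 (0.17, SE 0.049; 710 and 704 CPM in the COL8A1 libraries, against 622 and 634 CPM in the NC libraries), and 1 lower, ATF3 (−1.08, SE 0.277, edgeR adjusted p = 0.662), against 3.44% and 2.63% of all genes tested. DUSP5, an ERK phosphatase, had −0.29 (SE 0.174), IER3 0.48 (SE 0.335) and FOSL2 0.04 (SE 0.080). Single libraries stood far from the others for several of these genes, chosen with their values in view: SPRY4 had 194 counts in COL8A1 replicate 1 and 2065 to 2407 in the others, IER2 had 235 in COL8A1 replicate 2 and 1199 to 3248 in the others, and JUND had 152 in NC replicate 1 and 1630 to 2294 in the others. None of the 10 ligands had such a gap: the highest library was at most 3.18 times the lowest in CPM, for EDN1, and at most 1.90 times for the other nine.

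**Figure D5:**
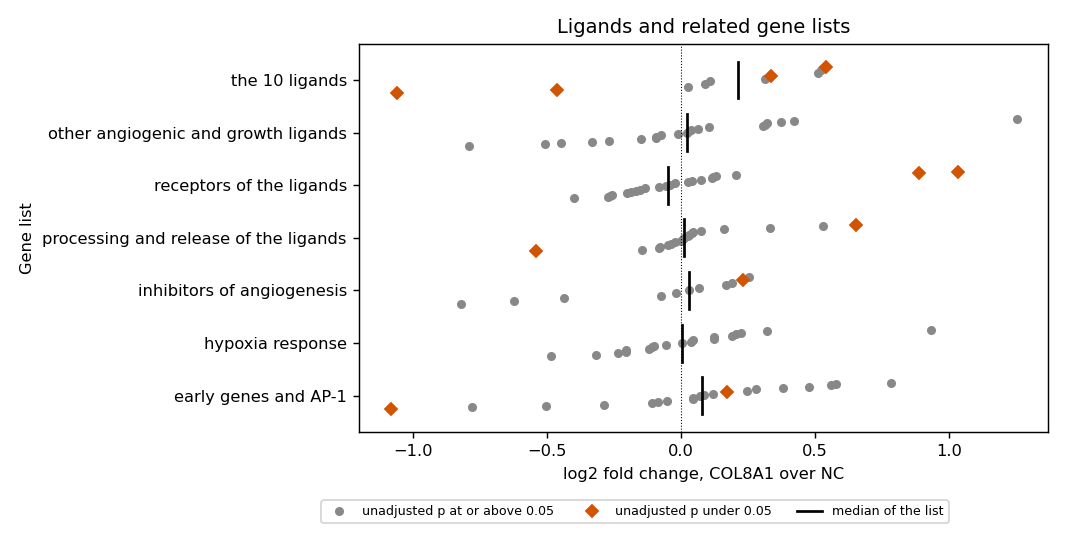
Log2 fold change (COL8A1 over NC) of each gene tested in the 10 ligands and in 6 related gene lists; orange diamonds have an unadjusted edgeR p under 0.05, grey points do not, and black bars are list medians. The median is 0.21 for the 10 ligands and between −0.05 and 0.08 for the other lists. The ligands and the lists were chosen with earlier results of these data known.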

How the data were processed

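The table that the authors deposited held whole-number read counts, unnormalized, with a column for each library. Per the submitters' processing notes, reads were handled with Trim Galore 0.6.9, HISAT2 2.2.1 and a featureCounts numbered 0.3, on build hg38. Parameters, strand setting and annotation release were not given in the sources used here. There were 61806 genes, and 1 line with no gene and 0 counts was left out. Groups and replicate numbers came from the sample titles.

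Genes kept by filterByExpr were tested with edgeR 4.0.16 in R 4.3.3 (TMM scaling, quasi-likelihood F-test, group as the only term, 2 residual degrees of freedom), and p-values were adjusted by Benjamini-Hochberg over all 17030 genes, with a threshold of 0.05. The SE restates that test: it is the size of the log2 fold change over the root of F. CPM used TMM-scaled library sizes, with factors from 0.993 to 1.007. The fit was tested on simulated counts. Replicates of both groups differed by more than sampling noise (chi-square per degree of freedom 33.8 for COL8A1 and 31.1 for NC). Alternatives used DESeq2 1.42.0, limma-voom (limma 3.58.1), other scaling, other filters, robust shrinkage, a replicate block, overlapping genes summed, and each library left out.

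The ligands and the gene lists were chosen with earlier results of these data known. Positions and lengths are from GENCODE release 29, whose assembly matches hg38. Genes named besides the 10 ligands were, in each list, the 4 with the smallest edgeR p and the 2 with the highest mean CPM, the main receptors, COL8A1, and the 3 genes nearest to the ligand with the widest range among those of at least 5 CPM. The cell type markers named were chosen from their lists with their values in view. Any other gene named was chosen for its role, for an overlap with a ligand or with its values in view.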

Additional observations from a re-analysis of the deposited data

How the results depend on the processing

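Under the alternatives that kept all 4 libraries, no ligand passed the adjusted threshold and the direction of all 10 held. Leaving out 1 library turned the sign of VEGFB (−0.018 to 0.239, negative without NC replicate 2) and of ANGPT1 (−0.120 to 0.154, negative without COL8A1 replicate 1 and, at −0.052, without NC replicate 1). The number of ligands at an unadjusted p under 0.05 was 4 in the edgeR fit reported. With all 4 libraries kept, it was 2 with a filter of 1 CPM in 2 libraries and 1 with the replicate block. It was 3 under upper quartile scaling, under library size alone and in limma-voom. The median log2 fold change of the ligands was 0.105 to 0.261 with 1 library left out. The genes past the adjusted threshold, 0 higher and 2 lower, became 11 and 6 without a low-count filter, 103 and 77 in DESeq2 and 8 and 6 with robust shrinkage. The count lower was 1 with the replicate block. Counts past a threshold with 1 library left out are not compared, since such a fit leaves 1 library in a group. The 7 genes of the related lists at an unadjusted p under 0.05 became 11 without a low-count filter and 8 to 20 with 1 library left out. The cause of these changes was not tested. The replicate numbers did not pair the libraries in the labels, and the difference of replicate 1 minus 2 correlated at −0.0447 between the groups over 14037 genes. No scaling moved the median of all genes by more than 0.003 on the log2 scale. Depth limits EDN1, HBEGF and PGF, at 45 to 143 counts per library.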
